A study of Mus musculus with 12 samples.

Results

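Sox4, Sox11, Sox12, Sox6, Sox13, Sox9, Sox10, Sox7 and Sox15 are 9 of the 20 mouse Sox genes matched among the 55573 genes of each library. They were chosen by symbol with the CPM (counts scaled to a common library size) of these same groups in view. Their levels, and the statistical calls on single genes below, are thus given as a description and not as a test of the family. PB3 is a mouse mammary cancer cell line that the labels describe as negative for Er, Pr and Her2. Its RNA was measured by polyA RNA-seq in 12 libraries, 3 each of untreated parental cells (Control) and of cells resistant to eribulin (ERI-R, a drug the labels also spell Erubilin), paclitaxel (PAC-R) or vinorelbine (VIN-R). Resistant clones were derived with 300, 500 and 800 nM of each drug. The labels do not tie a concentration to a library, do not say how many clones a library holds, and do not say that numbered replicates were separate cultures, so any p-value measures only the spread between these samples. Eribulin and vinorelbine block microtubule growth and paclitaxel stabilises microtubules. No time, animal or genotype beyond the cell line is given.

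SOX proteins are transcription factors that bind DNA through an HMG box, a domain that sits in the minor groove and bends the helix. They are sorted into groups by the sequence of that box. The SoxC group (Sox4, Sox11, Sox12) acts in progenitor cells, and Sox4 is known in breast cancer cells for its part in TGF-beta signalling and the epithelial-mesenchymal transition. SoxD proteins (Sox6, Sox13) have no activation domain of their own and work with partners, Sox6 beside Sox9 in cartilage. SoxE proteins (Sox9, Sox10) specify cartilage, neural crest and glia, and both are expressed in mammary epithelium. Sox7 is a SoxF gene known from endothelium and Sox15 a SoxG gene known from muscle precursors.

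The stretch of the HMG box that carries the family's signature is shown first, since it is what makes these 9 genes one family and also where reads of one gene could be mistaken for another. Each line gives 27 bases of coding exon, read from the GRCm38 genome with GENCODE M21 models, and capitals mark bases that differ from Sox4.
Sox4 (chr13:28952815-28952841, minus strand): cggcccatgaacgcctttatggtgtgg
Sox11 (chr12:27342232-27342258, minus strand): cggcccatgaacgccttCatggtgtgg
Sox12 (chr2:152397549-152397575, minus strand): cggccGatgaacgcGttCatggtgtgg
Sox6 (chr7:115489736-115489762, minus strand): cgAccAatgaaTgcGttCatggtTtgg
Sox13 (chr1:133385539-133385565, minus strand): AgAcccatgaaTgccttCatggtgtgg
Sox9 (chr11:112782903-112782929, plus strand): cgAcccatgaacgccttCatggtgtgg
Sox10 (chr15:79163375-79163401, minus strand): AggcccatgaacgccttCatggtgtgg
Sox7 (chr14:63943894-63943920, plus strand): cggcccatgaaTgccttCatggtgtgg
Sox15 (chr11:69655517-69655543, plus strand): cggcccatgaacgccttCatggtgtgg
The 9 runs encode the same 9 residues, so every capital above is a synonymous change, and the runs of Sox11 and Sox15 have the same letters. Over a box window of 69 residues (207 bases), pairs of the same group shared 87.0% to 95.7% of residues, against 46.4% to 66.7% for the 31 pairs of different groups. Sox9 and Sox10 were the closest pair at 95.7%, followed by Sox4 and Sox11 at 94.2%. The longest run of bases shared without a mismatch in the box was 48, between Sox4 and Sox11, and 0 of the 36 pairs shared a run as long as a read of 76 bases.

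**Figure D1:**
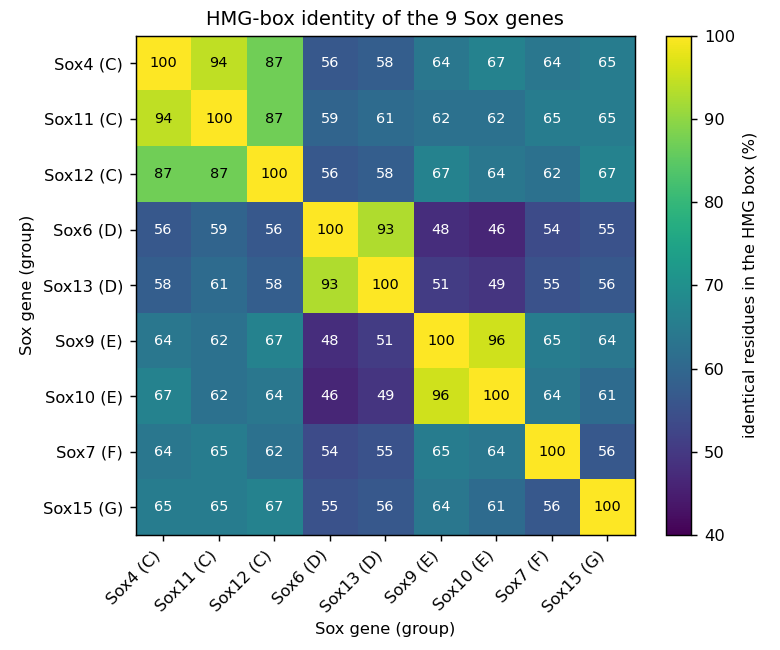
Percent of identical residues in the HMG-box window of 69 residues for each pair of the 9 Sox genes, with the Sox group in brackets on both axes and colour giving the percentage. Pairs of the same group lie at 87.0% or above and pairs of different groups at 66.7% or below.

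Totals of expected counts lay between 11141028 and 13454395 per library, and 14226 genes passed the filter on low counts. Of the 9 Sox genes, 7 passed it, and Sox10 and Sox15 did not. Levels below are CPM scaled by TMM factors, which compare 1 gene across libraries, or the deposited TPM, which are per length and compare genes with each other. A floor of 3 counts stands for 0.217 to 0.316 CPM in a library. Libraries stood apart in one respect. The macrophage lysozyme gene Lyz2 was at 0 CPM in PAC-R 3, VIN-R 3, ERI-R 3 and Control 1, and the other 8 libraries had leukocyte transcripts. Sums of the 14 leukocyte genes (all 14 detected) were taken over every library of a group. They ran from 1.16 to 2250 CPM in Control, 3.68 to 1198 in ERI-R, 3.21 to 4306 in PAC-R and 1.77 to 4123 in VIN-R. The low end in each group is the library with Lyz2 at 0. Bulk libraries cannot tell fewer cells of a type from less RNA per cell. All 6 epithelial genes of a marker list (such as Krt8 and Krt18) had counts in every group, though Krt5 held only 2 in Control, 3 in PAC-R and 4 in VIN-R. Esr1, the oestrogen receptor gene, was at 12.7 ± 1.38 CPM (SD, n = 3) and Erbb2, the Her2 gene, at 31.1 ± 6.99 CPM in Control. Transcripts of Esr1 and Erbb2 were thus present in cells labelled negative for these receptors.

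Sox4, the SoxC gene with the highest level, was read at 392, 571 and 695 CPM in Control, at 288, 291 and 1241 in ERI-R, at 355, 506 and 491 in PAC-R and at 561, 368 and 331 in VIN-R. ERI-R 3 was the highest of all 12 libraries and ERI-R 1 and 2 were the lowest, so the ERI-R range spans every other group. The fitted log2 fold change against Control was 0.13 ± 0.54 (SE) in ERI-R, -0.30 ± 0.54 in PAC-R and -0.40 ± 0.54 in VIN-R. Without ERI-R 3 the first of these was -0.79, and over the 8 libraries with leukocyte transcripts it was -1.04. It was also below 0, at -0.03, without Control 1, so the fitted value has no settled sign. Per length, Sox4 in ERI-R 3 stood at 215 TPM, inside the Control range of 141 to 244 TPM. ERI-R 3 was the library with the lowest TMM factor, 0.855. Before scaling it held 11792 counts of Sox4, beside 3783 and 3810 in ERI-R 1 and 2. With scaling by total counts alone the fitted value of ERI-R against Control was 0.05. The cause of the gap between CPM and TPM in ERI-R 3 was not tested.

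Sox11, a SoxC gene of embryonic and neural progenitors, was almost confined to ERI-R in these libraries. It stood at 23.2, 22 and 85.6 CPM in ERI-R 1 to 3, from 1405 counts. Control held 0, 0.419 and 0.175 CPM (7 counts), PAC-R 0.672, 0.506 and 0 (13 counts) and VIN-R 0, 0.274 and 0 (3 counts). The lowest ERI-R library lay above every library of the other groups, and ERI-R 3 was again the highest. Per length it stood out less, at 8.42 TPM beside 5.6 and 4.68 in ERI-R 1 and 2. The log2 fold change of ERI-R against Control was 7.74 ± 1.42 (SE), and 6.93 without ERI-R 3. Against VIN-R, which rests on 3 counts, the ratio of CPM is given in place of the fitted value. It was 478 with a 95% counting interval of 163 to 2319.

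Sox12, the third SoxC gene and usually the weakest activator of the group, was read at 9.9, 6.04 and 8.04 CPM in Control and at 12.3, 13.8 and 35.5 in ERI-R. PAC-R held 2.69, 2.44 and 8.89 CPM and VIN-R 3.01, 1.74 and 5.9. All ERI-R libraries lay above all others, and the VIN-R libraries lay below all Control libraries, VIN-R 3 (5.9) only just below Control 2 (6.04). Per length, ERI-R 1 to 3 stood at 5.68, 5.6 and 6.71 TPM, so ERI-R 3 stood out less than in CPM. The log2 fold change was 1.36 ± 0.64 (SE) for ERI-R against Control, -0.77 ± 0.64 for PAC-R and -1.16 ± 0.64 for VIN-R. In each of the 4 groups the library without leukocyte transcripts was the highest, and without PAC-R 3 the PAC-R value was -1.64. The part of leukocyte RNA in this was not tested.

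The 3 SoxC genes thus differed in ERI-R, and their promoters are shown because the group shares its box but not its pattern. Each run lies upstream of the start of both the RefSeq and the GENCODE model, from the RefSeq windows on GRCm38.p6, in which 6 of the 9 Sox genes were matched. Capitals mark CCAAT, the site of the general factor NF-Y, on either strand (ATTGG when read on the other).
Sox4 (chr13:28953714-28953949, minus strand): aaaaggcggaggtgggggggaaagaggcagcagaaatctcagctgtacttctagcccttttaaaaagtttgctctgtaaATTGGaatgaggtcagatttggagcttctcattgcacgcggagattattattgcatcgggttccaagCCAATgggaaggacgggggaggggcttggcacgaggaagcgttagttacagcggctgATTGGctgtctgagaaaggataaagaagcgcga
Sox11 (chr12:27342719-27342968, minus strand): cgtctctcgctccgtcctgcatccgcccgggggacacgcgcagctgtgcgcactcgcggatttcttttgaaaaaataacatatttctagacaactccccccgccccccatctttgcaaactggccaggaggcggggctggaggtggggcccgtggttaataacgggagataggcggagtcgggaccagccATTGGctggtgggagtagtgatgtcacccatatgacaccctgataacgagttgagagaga
Sox12 (chr2:152398064-152398296, minus strand): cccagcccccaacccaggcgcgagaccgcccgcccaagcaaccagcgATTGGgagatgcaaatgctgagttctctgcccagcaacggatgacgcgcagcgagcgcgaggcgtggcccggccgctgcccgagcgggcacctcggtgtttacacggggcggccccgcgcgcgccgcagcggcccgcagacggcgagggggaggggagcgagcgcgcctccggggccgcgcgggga
The Sox4 run holds 3 matches to CCAAT and the Sox11 and Sox12 runs 1 each, while 33.8% of the 32851 windows of 250 upstream bases hold at least 1. The CG dinucleotide occurs 10 times in the Sox4 run, 17 times in that of Sox11 and 35 times in that of Sox12, against a median of 6 over all windows. None of the 3 windows of 250 bases holds CACCTG (the E-box bound by Zeb and Snail repressors, in 17.2% of windows), ACAAAG (16.5%), ACAATG (10.7%) or ACCGGT (1.86%). Each was searched on both strands, and none of these strings holds CCAAT.

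Sox6, a long SoxD partner of Sox9, was the second gene seen almost wholly in ERI-R. ERI-R 1 to 3 held 19.2, 15.8 and 6.74 CPM (523 counts). Control held 0.0723, 0.587 and 0.175 CPM (10 counts), PAC-R 0.959, 0.421 and 0.373 (20 counts) and VIN-R 0, 0.183 and 0.221 (5 counts). The lowest ERI-R value was above every other library, and unlike Sox11 it was ERI-R 3 that was lowest. The log2 fold change against Control was 5.61 ± 0.92 (SE) in ERI-R, 1.05 ± 0.86 in PAC-R and -0.96 ± 0.96 in VIN-R. Without Control 2, the Control library with the most Sox6, the ERI-R value was 6.72, the PAC-R value 2.17 and the VIN-R value 0.16. The antisense gene Sox6os had at most 2 counts in a library, and the strand setting of the counting is not given in the sources used here. RSEM's mean transcript length for Sox6 ran from 2150 to 8668 bases across libraries, so its TPM also carries a change in the isoforms assigned.

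Sox13, the other SoxD gene, first known as an autoantigen and expressed widely, was read at 21, 16.5 and 24.8 CPM in ERI-R. Control held 5.86, 1.17 and 0.699 CPM, PAC-R 3.55, 9.95 and 11.4 and VIN-R 4.43, 3.38 and 6.79. In CPM the ERI-R libraries lay above all others, and the PAC-R and VIN-R ranges overlapped that of Control, where Control 1 was the highest library. In TPM they did not lie apart: ERI-R 3 was the lowest ERI-R library at 6.74 TPM, below PAC-R 2 at 7.15. The log2 fold change against Control was 3.00 ± 0.75 (SE) in ERI-R, 1.67 ± 0.72 in PAC-R and 0.91 ± 0.71 in VIN-R. Without Control 1, a library without leukocyte transcripts, these were 4.53, 3.16 and 2.37, and without Control 2 or Control 3 the ERI-R value was 2.64 or 2.54 and was no longer called. In each group the library without leukocyte transcripts held the highest CPM of Sox13, and the part of leukocyte RNA in this was not tested.

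Sox9, the SoxE gene that drives cartilage formation and marks mammary progenitors, stood at 322, 339 and 771 CPM in ERI-R. Control held 141, 187 and 204 CPM, PAC-R 165, 170 and 158 and VIN-R 347, 153 and 126. ERI-R lay above Control and PAC-R in every library but overlapped VIN-R, where VIN-R 1 stood apart. Per length, ERI-R libraries lay between 149 and 160 TPM and VIN-R libraries between 48.5 and 117 TPM, without overlap, and the high CPM of ERI-R 3 had no counterpart in TPM. The log2 fold change against Control was 1.43 ± 0.45 (SE) in ERI-R, -0.11 ± 0.44 in PAC-R and 0.23 ± 0.44 in VIN-R, the last turning to -0.35 without VIN-R 1. The ERI-R call for Sox9 was lost without ERI-R 3 (1.04), without Control 1, 2 or 3 (1.34, 1.45 and 1.52) and over the 8 libraries with leukocyte transcripts (0.85). Sox10, the other SoxE gene, which drives glia and melanocytes, had 0 counts in all 12 libraries, where the floor over all libraries is 0.0207 CPM.

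Sox7, the SoxF gene, ran the other way. Control held 2.24, 3.19 and 2.36 CPM (96 counts), and ERI-R 0.0762, 0.0763 and 0 (2 counts). PAC-R held 0.576, 0.506 and 0.373 CPM (17 counts) and VIN-R 0.837, 0.731 and 0.221 (21 counts). The 3 resistant lines lay below Control in every library, and ERI-R lay below the other lines in every library. The ratio of Control to ERI-R was 46.1 with a 95% counting interval of 12.4 to 386, and that of VIN-R to ERI-R 10.3 with an interval of 2.52 to 90.6. Against Control the log2 fold change was -2.40 ± 0.59 (SE) in PAC-R and -2.11 ± 0.58 in VIN-R, and neither was called. Sox15, the SoxG gene, had 3 counts in all, 1 each in Control 3, ERI-R 2 and VIN-R 3.

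**Figure D2:**
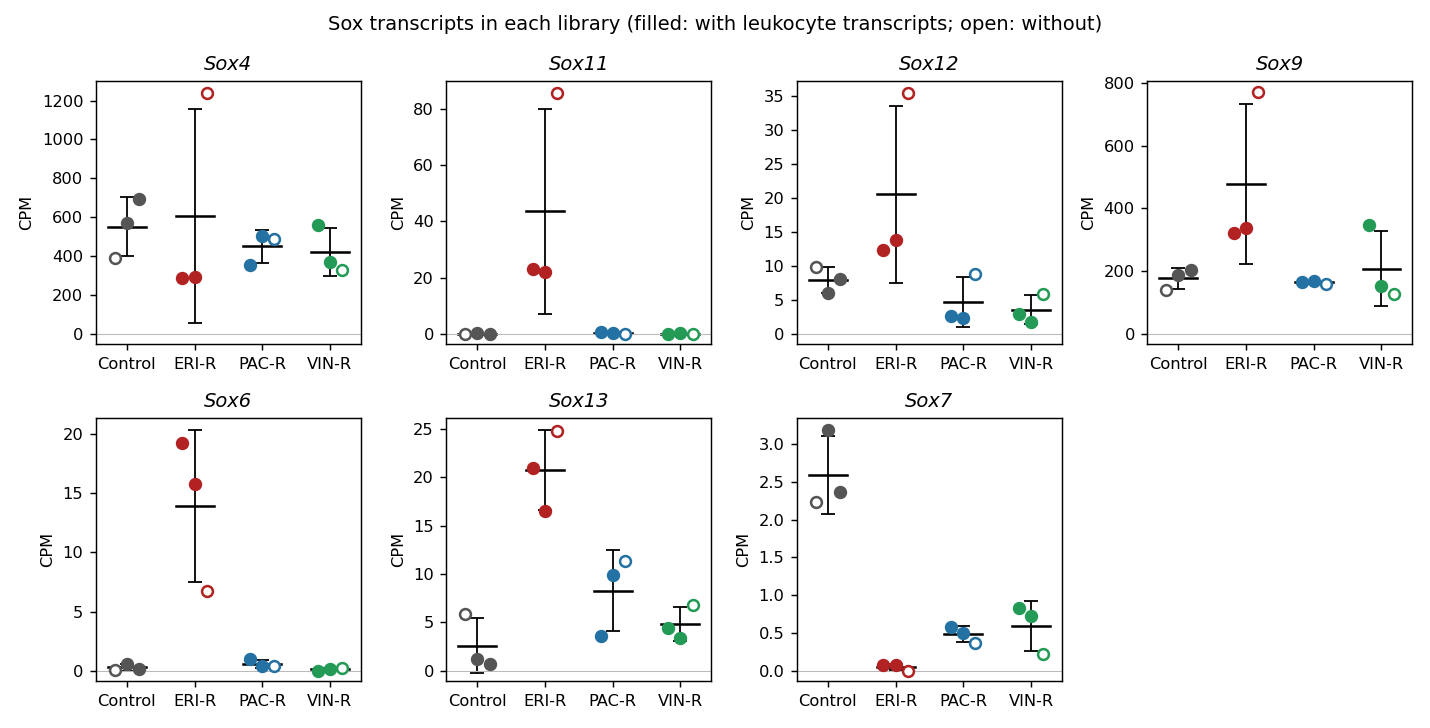
CPM (vertical axis, linear, its own scale in each panel) of 7 Sox genes in the 12 libraries by group, with points for libraries, bars for the mean and whiskers for the SD, filled points for libraries with leukocyte transcripts and open points for those without. Sox11 and Sox6 lie near 0 outside ERI-R, and Sox7 is highest in Control. ERI-R 3 is the highest point for Sox4 at 1241 CPM, Sox11, Sox12, Sox9 and Sox13.

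The threshold for a call was an adjusted p (Benjamini-Hochberg, over all genes) under 0.05 in edgeR's quasi-likelihood test. Between ERI-R and Control 5 of the 7 tested Sox genes were called (Sox11, Sox6, Sox13 and Sox9 higher, Sox7 lower), where 19.2% of all genes were called. Between ERI-R and PAC-R 5 were called (Sox11, Sox12, Sox6 and Sox9 higher, Sox7 lower) against 18.7% of all genes, and between ERI-R and VIN-R 4 (Sox11, Sox12 and Sox6 higher, Sox7 lower) against 19.3%. Sox11 and Sox6 passed the filter on low counts through ERI-R, where they are high, and Sox7 through Control. Their place among the tested genes is thus tied to these comparisons. The numbers of Sox genes called describe genes chosen with the same values in view, and nothing is read from them. In PAC-R against Control, VIN-R against Control and PAC-R against VIN-R 0 Sox genes and 0% of all genes were called by edgeR, with 245, 381 and 156 genes at an unadjusted p under 0.05, and DESeq2 called 24, 36 and 5 genes, 0 of them a Sox gene among the 9. The comparisons against Control share the 3 Control libraries, and those of ERI-R share its 3 libraries. Without Control 2 or Control 3 the ERI-R count against Control was 3, and without PAC-R 1 or PAC-R 2 the count of ERI-R against PAC-R was 2 and without ERI-R 3 it was 3. Against PAC-R, Sox12 (2.13) lost its call without ERI-R 2 (2.35), ERI-R 3 (1.60), PAC-R 1 (1.84) or PAC-R 2 (1.80) and without a filter (2.04). Sox9 (1.54) lost it there without ERI-R 3 (1.15) or any 1 PAC-R library (1.53, 1.55 and 1.50), without a filter (1.48), over the 8 libraries with leukocyte transcripts (1.09) and with the replicate block (1.50). Sox7 (-2.92) lost it there without PAC-R 1 (-2.80) or PAC-R 2 (-2.90) and in DESeq2 (-3.07). Against VIN-R, Sox12 (2.52) lost its call without ERI-R 3 (2.00), VIN-R 1 (2.40) or VIN-R 2 (2.18), and Sox9 (1.20) gained one without VIN-R 1 (1.76) and in DESeq2 (1.27). Sox13 (2.09) gained one against VIN-R in DESeq2 (2.16), over the 8 libraries (2.36) and with the leukocyte score (2.15).

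**Figure D3:**
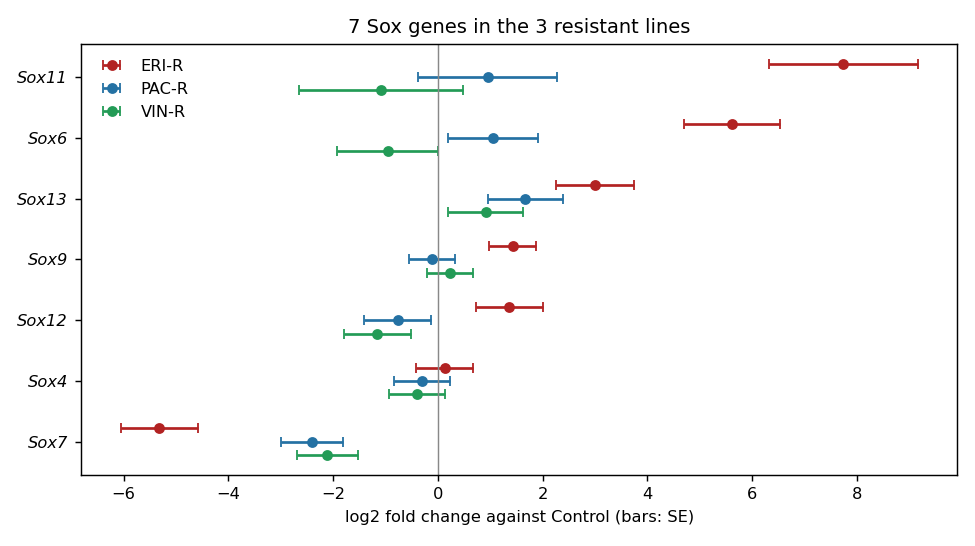
Log2 fold change of each resistant line against Control for the 7 tested Sox genes, with points for the fitted value and bars for its SE. Sox11 at 7.74 and Sox6 at 5.61 in ERI-R stand farthest above 0, and all 3 lines lie below 0 for Sox7.

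Per length, Sox4 and Sox9 made up most of the family in every library. Sox4 made up 65.3% ± 4.5 (SD, n = 3) of the summed TPM of all Sox genes in Control and 43.4% ± 9.43 in ERI-R, with 59% in PAC-R and 51.9% in VIN-R. Sox9 made up 24.8% in Control and 46.9% ± 6.59 in ERI-R, 25.5% in PAC-R and 28% in VIN-R. Among the 9 genes the order in Control was Sox4 (191 TPM), Sox9 (71.5), Sox12 (3.01), Sox13 (1.85), Sox7 (1.32), with the others under 0.1 TPM. In ERI-R it was Sox9 (155 TPM) and Sox4 (149), whose ranges overlapped, then Sox13 (12.2), Sox11 (6.23), Sox12 (6) and Sox6 (3.51). The sum itself was 289 ± 58.9 TPM in Control, 336 ± 55.5 in ERI-R, 236 ± 49.9 in PAC-R and 255 ± 87.1 in VIN-R, and these ranges overlapped.

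**Figure D4:**
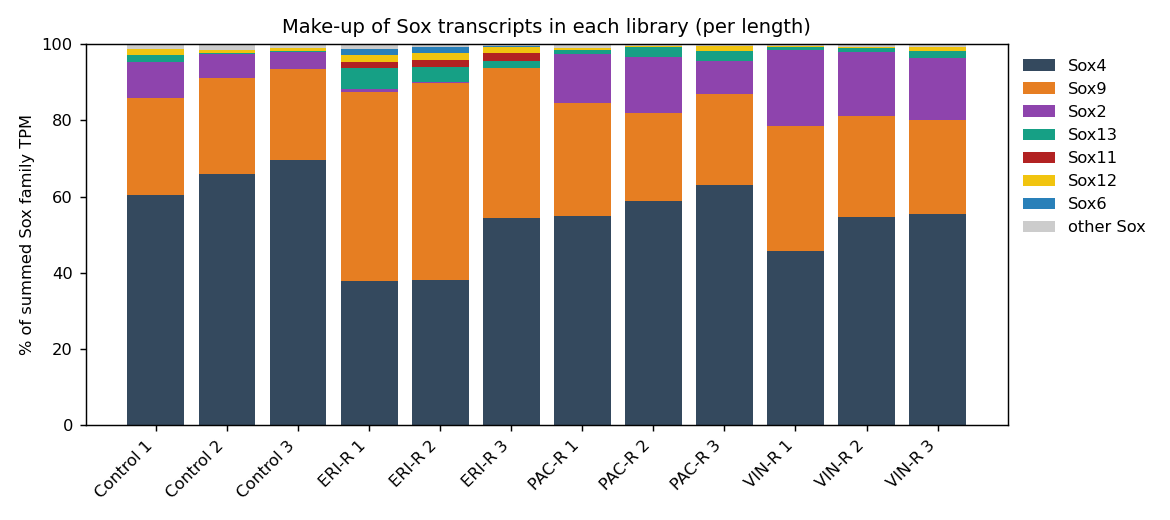
Percent of the summed TPM of all Sox genes (vertical axis) held by each gene in each of the 12 libraries. The Sox9 part is 39.4% to 51.8% in ERI-R libraries and 23.9% to 25.4% in Control, and the Sox2 part is smallest in ERI-R.

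Of the 11 other Sox genes, Sox1, Sox3, Sox17, Sox18 and Sry had no count in any library, and 3 were tested. Sox2, a SoxB gene of pluripotent and progenitor cells, was the gene called among them. It fell in ERI-R to 2.44, 0.61 and 0.21 CPM from 24.7, 22.5 and 18 in Control (log2 fold change -4.28 ± 0.74 SE, edgeR adjusted p = 0.0026). PAC-R held 33.7, 51 and 27.1 CPM and VIN-R 98.2, 46 and 39.4, all above Control in CPM, with neither called. In TPM the PAC-R range (19 to 42.8) overlapped that of Control (15.7 to 22). Sox8, the remaining SoxE gene, was seen at 1.14, 0.381 and 0.316 CPM in ERI-R and at 1 count in all the other libraries together.

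Genes that Sox proteins are known to act on, or that mark the tissues they build, were read as lists. Of 15 cartilage genes, 8 passed the filter in ERI-R against Control and 5 of these rose, beside 19.2% of all genes called. Col2a1, Col9a1, Col9a3, Mia and Snorc were under 0.4 CPM in Control and passed the filter through ERI-R. The list is therefore given gene by gene and no median over it is drawn on. Col9a3, a chain of cartilage collagen IX, rose from 0.309 to 45.1 CPM (7.16 ± 0.76 SE, edgeR adjusted p = 0.00037). Col11a1, a chain of collagen XI, rose from 1.97 to 78.6 CPM (5.31 ± 0.65, adjusted p = 0.00058). Col2a1, the main cartilage collagen and a direct target of Sox9 with SoxD partners, rose from 0.291 to 3.88 CPM (3.68 ± 0.62, adjusted p = 0.0023), while in TPM its ERI-R range (0.61 to 1.79) overlapped that of Control (0.06 to 0.8). Col9a1 (0.279 to 26.1 CPM, adjusted p = 0.017) lost its call without Control 1 or Control 3, where the list count was 3. Mia, a secreted cartilage protein, had 2 counts in Control and 730 in ERI-R, a ratio of 380 with a 95% counting interval of 105 to 3144. Most of these came from ERI-R 3, at 62.5 CPM beside 4.42 and 5.95 in ERI-R 1 and 2. The edgeR adjusted p of Mia was 0.016, a call lost without any 1 of the Control libraries. Snorc was at 0 counts in Control and at 0.915, 0.915 and 12.4 CPM in ERI-R 1 to 3 (edgeR adjusted p = 0.059). Col11a2 was at 1.59 CPM in Control and 2.31 in ERI-R (adjusted p = 0.43), and Col27a1 at 1.69 and 0.932 CPM (adjusted p = 0.30). Snorc, Col11a2 and Col27a1 were not called. The 7 genes that did not pass the filter were also low in ERI-R: Acan, the main cartilage proteoglycan, was at 0.379 CPM there, Comp, Matn1, Matn3 and Col9a2 were between 0.203 and 0.302, and Hapln1 and Chad were at 0. PAC-R and VIN-R had 0 calls of 8 in this list. The 7 fibroblast genes of a marker list, which include fibrillar collagens, summed to 52.8 to 68.4 CPM in Control and 24.5 to 93.2 in ERI-R, and their part in the cartilage values was not tested.

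**Figure D5:**
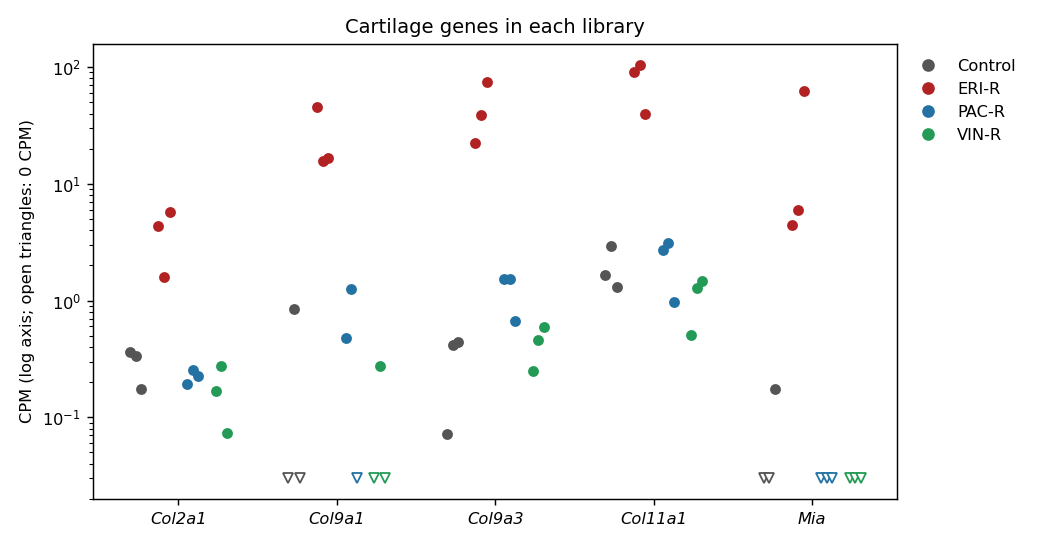
CPM on a log axis of 5 cartilage genes in each of the 12 libraries, with colour for the group and open triangles for libraries at 0 CPM. For each gene the 3 ERI-R libraries lie above all 9 others, and Col2a1 in ERI-R stays between 1.6 and 5.68 CPM.

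Of 17 neural crest and glial genes, 11 were tested in ERI-R against Control, with 1 higher and 2 lower (3 of 11 called, beside 19.2% of all genes) and a median of -0.96 against -0.004 over all genes. Erbb3, a neuregulin receptor that Sox10 drives in glia, rose from 3.11 to 30.4 CPM (3.29 ± 0.77 SE, edgeR adjusted p = 0.012), and lost its call without Control 1 or Control 2. S100b fell from 6.74 to 0.519 CPM (adjusted p = 0.019, lost without Control 2), and Ngfr, the p75 neurotrophin receptor, fell from 142 counts to 2 (adjusted p = 0.0015, Control to ERI-R ratio 68.2 with a counting interval of 18.5 to 569). Mitf, which Sox10 activates in melanocytes and macrophages also express, was at 5.28, 46.7 and 26.2 CPM in Control and at 23.1, 15.9 and 1.26 in ERI-R. It was lowest in each group in the library without leukocyte transcripts. The fitted value of Mitf, -0.96 ± 1.38 (SE) and not called, is itself the median of the list, so no shift of the list is read from that median.

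Of 6 genes tied to SoxC proteins, 5 were tested in ERI-R against Control, with 1 higher and 2 lower (3 of 5 called, beside 19.2% of all genes) and a median of -0.54. Tubb3, the neuronal beta-tubulin and a SoxC target, fell from 268 counts in Control to 3 in ERI-R (adjusted p = 0.0014 in edgeR), a ratio of 85.8 with a counting interval of 29 to 419. Plxna2, a semaphorin receptor, fell from 37.8 to 5.39 CPM (-2.80 ± 0.46 SE, adjusted p = 0.002). Sema3c, a secreted semaphorin, rose from 20.7 to 110 CPM (2.40 ± 0.25, adjusted p = 0.00035). Tead2, a Hippo pathway factor that SoxC proteins activate, was at 83.1 ± 25.7 CPM in Control and 57.1 ± 27.6 in ERI-R and was not called (adjusted p = 0.50). Of 10 TGF-beta genes, 1 rose and 2 fell (3 of 10 called, beside 19.2% of all genes), with a median of -0.73. Tgfb2, a ligand, rose from 1.37 to 11.5 CPM (3.06 ± 0.44, adjusted p = 0.0012), Smad3, a signal transducer, fell from 277 to 30.4 CPM (-3.19 ± 0.48, adjusted p = 0.0014), and Smad7, an inhibitor, fell from 81.2 to 31.8 CPM (-1.35 ± 0.32, adjusted p = 0.013), a call lost without Control 1 or ERI-R 2, over the 8 libraries with leukocyte transcripts and with scaling by total counts alone.

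Of 12 endothelial genes, which Sox7 is known to act among, 6 were tested in ERI-R against Control and 1 was called, a share below the 19.2% of all genes called, so the list does not stand out. That gene, Flt1, a VEGF receptor, rose from 34.7 to 275 CPM (2.99 ± 0.67 SE, edgeR adjusted p = 0.01). Cldn5, a defining endothelial gene, was at 0 in all 12 libraries, and the 5 endothelial markers summed to 0.316 to 22.1 CPM. Of these markers, Kdr, Pecam1 and Vwf were lowest in each group in the library without leukocyte transcripts, while Cdh5 was highest of Control in Control 1.

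Mammary lineage genes were read because Sox9 and Sox10 are known from mammary progenitors. Of 10 basal genes, 7 passed the filter in ERI-R against Control and 5 of these rose, beside 19.2% of all genes called. Krt5 and Krt17 were under 0.5 CPM in Control and passed the filter through ERI-R. Trp63 and Mylk were also under 0.5 CPM in Control. Mylk stood at 11.7 CPM in ERI-R, 1.92 in PAC-R and 1.67 in VIN-R, and was called in ERI-R alone. Krt14 rose from 2.82 to 442 CPM (7.29 ± 1.49 SE, edgeR adjusted p = 0.0061), Krt17 from 0.254 to 33.8 CPM (adjusted p = 0.0047) and Trp63, the basal factor p63, from 0.482 to 43.9 CPM (adjusted p = 0.01, lost without Control 3). Krt5 had 2 counts in Control and 218 in ERI-R (adjusted p = 0.002), a ratio of 113 with a counting interval of 31 to 943. Snai2, the repressor Slug, was at 9.67 CPM in Control and 3.43 in ERI-R (adjusted p = 0.26) and Acta2, smooth muscle actin, at 1.53 and 1.17 CPM (adjusted p = 0.93), and neither was called. Both were lowest in each group in the library without leukocyte transcripts, with Acta2 at 0 CPM in Control 1 and ERI-R 3. Cnn1, Myh11 and Oxtr did not pass the filter, with 0.507, 0.213 and 0.172 CPM in ERI-R. Of 12 luminal genes, all tested, 6 rose and 2 fell (8 of 12 called, beside 19.2% of all genes). Elf5, Kit and Pgr were under 0.5 CPM in Control and passed the filter through ERI-R. The genes that fell were Gata3, a luminal factor, from 69.8 to 10.7 CPM (-2.70 ± 0.42 SE, edgeR adjusted p = 0.0015), and Aldh1a3, from 2.98 to 0.672 CPM (adjusted p = 0.024, lost without any 1 Control library, without ERI-R 1 or ERI-R 2 and over the 8 libraries with leukocyte transcripts). The luminal keratins Krt8 (826 and 477 CPM in Control and ERI-R, adjusted p = 0.51) and Krt18 (904 and 397 CPM, adjusted p = 0.30) were not called. Gata3, Aldh1a3, Kit, Mylk and the genes of these lists that were not called are named outside the rule, after their values were seen. Elf5, the factor of the alveolar lineage, rose from 0.141 to 35.3 CPM (7.90 ± 1.20, adjusted p = 0.0014) and Prlr, the prolactin receptor, from 1.77 to 209 CPM (adjusted p = 0.017, lost without Control 3). Ehf, an epithelial ETS factor, rose from 3.15 to 253 CPM (adjusted p = 0.044), a call lost without Control 1, Control 3 or any 1 of the ERI-R libraries and without a filter. Pgr, the progesterone receptor gene, had 3 counts in Control and 208 in ERI-R (adjusted p = 0.037, ratio 72.2 with a counting interval of 24.4 to 353), a call lost without any 1 Control library and without ERI-R 1 or ERI-R 2. The luminal count of 8 fell to 3 without Control 3 and to 4 without Control 1, ERI-R 1 or ERI-R 2. In PAC-R and VIN-R 0 genes of each of these lists were called by edgeR.

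The genes whose pattern over the 12 libraries lay closest to each Sox gene were ranked by the root mean square difference of centred log2 CPM over 11046 genes. For Sox11 they were Fxyd3 (0.37), an ion transport regulator of epithelia, Elf5 (0.46) and Rspo3 (0.46), a Wnt enhancer. For Sox6 they were Fbln5 (0.45), an elastic fibre protein, Sp6 (0.49) and Ell3 (0.55). Sox12 lay nearest to Shroom1 (0.38), Rnf122 (0.39) and Spint2 (0.39). Sox13 had no close neighbour, with Aqp5, a water channel, at 0.60 and Tln2 and Neurl1b at 0.77. Sox9 lay nearest to Ccpg1os (0.21), Nfib (0.26), a nuclear factor I gene, and Timm8a1 (0.28), and Sox4 to Cir1, Camk1 and Bbc3 (0.27 each). These distances describe the 12 libraries, and genes that differ between the same groups lie near each other by that alone.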

How the data were processed

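PolyA RNA of PB3 cells was read in 12 libraries (200 ng of RNA, paired reads of 76 bases). The tools, named without roles in the submitters' processing notes, were RSEM 1.3.2, STAR 2.7.2b, cutadapt 2.4 and bcl2fastq 2.20.0.422, with the build GRCm38. The annotation is not given in the sources used here, nor is the strand. The files deposited by the authors hold, per the file headers, RSEM's expected counts (estimated read pairs per gene, not normalized), TPM (scaled to length and to the library's sum) and transcript lengths. Expected counts were rounded, which changed 15.3% of values above 0, filtered with filterByExpr and scaled by TMM (factors 0.855 to 1.18). A robust quasi-likelihood model (glmQLFit of edgeR 4.0.16, R 4.3.3) was fitted to group means over all 12 libraries, with 8 residual degrees of freedom and a common coefficient of variation of 0.591. The code was run on simulated counts of a lower spread than these data, which checks the code and not the calls made here. Calls used a Benjamini-Hochberg adjusted p under 0.05 over 14226 genes, and SEs come from the F statistics. Log2 CPM for pattern distances used a prior count of 1. Counting intervals of ratios are 95% and, like floors, cover counting error only, since reads carry no molecular identifiers.

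The members and gene lists were chosen with earlier results of these data known. Named list genes were those called with at least 1 CPM in the higher group, at most 4 per list by size of change, plus Tubb3, Tead2, Mitf, Col2a1 and Erbb3. Each member at 5 CPM or more in some group also got its 3 nearest genes. Same-numbered libraries had r of 0.607 to 0.764 in ERI-R and PAC-R and of 0.221 to 0.917 in PAC-R and VIN-R. In ERI-R and VIN-R r was 0.083, 0.588 and 0.671 for libraries 1, 2 and 3. Differently numbered libraries ran as high, at 0.7 for ERI-R 1 and PAC-R 2 and 0.865 for PAC-R 1 and VIN-R 2. They also ran as low as -0.913, for PAC-R 3 and VIN-R 2. The labels give no pairing, and these values do not set one by number. In all 3 lines the library numbered 3 is the one without leukocyte transcripts. Control 1, also without them, had r of 0.915 with VIN-R 3. Alternatives were DESeq2 1.42.0, other size factors and filters, each library left out, a replicate block, a leukocyte score and the 8 libraries with leukocyte transcripts.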

Additional observations from a re-analysis of the deposited data

How the results depend on the processing

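Of 640 other values under alternatives (fold changes of single Sox genes, list counts and nearest genes), 607 stayed within the spread or within 1.5 times, 33 moved and 0 called values changed sign. The number of Sox genes called was 5 in ERI-R against Control, 5 in ERI-R against PAC-R and 4 in ERI-R against VIN-R. Leaving out 1 library gave 3 to 5, 2 to 5 and 3 to 4 in turn, and 0 in the comparisons without ERI-R. Without a filter on low counts the count of ERI-R against PAC-R was 3, losing Sox12 and Sox9; the cause was not tested. Over all groups, 11 of 18 same-numbered pairs had deviations correlated above 0.1, from -0.863 to 0.917, so the numbers do not pair Control with the lines. With the replicate block 4 Sox genes were called in ERI-R against Control, losing Sox9 (1.39, and 1.38 without a filter), and 2666 genes in all against 2732. With the block 4 were called in ERI-R against PAC-R, losing Sox9, and no other call on a Sox gene changed. The Sox4 value of ERI-R against Control was -0.04 with the block and -0.04 with the leukocyte score. With a leukocyte score as a covariate 4560 genes were called in that comparison, Sox12 among them (1.17). The list counts moved by over 1.5 times under these leukocyte settings for TGF-beta genes (3 to 5 under both) and for crest genes (3 to 5 with the score), and crest genes went to 1 without Control 2. Over the 8 libraries with leukocyte transcripts the log2 fold changes of Sox11, Sox6 and Sox7 in ERI-R against Control were 6.29, 5.58 and -4.91. Depth limits Sox10, Sox15 and the low groups of Sox11, Sox6 and Sox7, which rest on few counts.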

Other observations

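Sox5 and Sox21 were tested beside the 9 genes and not called in any line against Control. Sox5, the SoxD gene closest in role to Sox6, was at 1.56 ± 0.324 CPM (SD, n = 3) in Control, 2.28 ± 1.28 in ERI-R, 0.912 ± 0.596 in PAC-R and 1.18 ± 0.505 in VIN-R, and the ERI-R range (0.839 to 3.26 CPM) spanned that of Control (1.31 to 1.93). Sox21, a SoxB gene, was at 2.7 ± 0.668, 2.16 ± 1.23, 1.27 ± 0.662 and 2.03 ± 0.218 CPM in the same order. The difference between Sox5 and Sox6 was not tested.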
